A study of Homo sapiens with 12 samples.

Results

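Genes of ion channels were followed through 4 groups of CWR22Rv1 cells, an established human prostate cancer line. The set was defined by symbol and chosen with earlier results of these data known. It took in every listed gene whose name belongs to the KCN potassium channel, CACN calcium channel or SCN sodium channel families. The set also took in the TRPC, TRPM and TRPV, ANO (TMEM16 or anoctamin), CLCN chloride and HCN families, with antisense transcripts left out. It held 82 of the 13951 genes listed, against 178 protein-coding genes with such symbols in the GENCODE annotation of GRCh38. The symbols take in inward rectifiers, two-pore-domain potassium channels, TRP channels, ClC proteins and auxiliary subunits, so not every member is itself a voltage-gated pore. Channel genes absent from the list were not analysed here.

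All cells were grown for 48 h and there were 3 libraries in each group. Control cells carried Cas9, integrated by the Sleeping Beauty transposon with a puromycin resistance gene, and no guide RNA. LV-MEIS1 cells carried a lentiviral MEIS1 transgene and, per the study's methods, were selected and kept in puromycin after infection. HOXB13ko cells were a pool of 6 clonal lines edited at HOXB13 with CRISPR, by a guide RNA transfected into puromycin-selected cells with integrated Cas9. HOXB13ko-LV-MEIS1 cells were that pool infected with the same MEIS1 lentivirus, so both groups labelled HOXB13ko derived from Cas9 cells. The pool thus already carried a puromycin resistance gene before that infection. The sources used here do not say whether the LV-MEIS1 cells carried Cas9. Each genotype was 1 derived line or pool, so p-values measure the spread between cultures of a line. Effects of clone selection, of transduction or of puromycin selection cannot be told apart from those of the named alteration. The same holds for any difference in Cas9 in comparisons with LV-MEIS1.

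Voltage-gated potassium, sodium and calcium channels open when the membrane is depolarised, and their pore-forming subunits work with auxiliary subunits that set trafficking and gating. Potassium channels draw the membrane towards rest, calcium channels let in a second messenger, and anoctamins are chloride channels or lipid scramblases activated by calcium. In prostate epithelium, channels of these families take part in fluid secretion, calcium signalling and control of cell volume. MEIS1 and HOXB13 are homeodomain transcription factors, and the design asks how far effects of exogenous MEIS1 depend on HOXB13.

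Estimated depth was between 17100000 and 28600000 reads per library, and 3 reads were worth between 0.105 and 0.175 CPM (read counts scaled to library size). Correlations of log2 values between replicates ranged from 0.99 to 0.995. MEIS1 mRNA lay between 4.05 and 4.45 CPM in Control and between 45.8 and 49.6 CPM in LV-MEIS1, and between 3.42 and 3.65 CPM in libraries labelled HOXB13ko and between 29.3 and 30.1 CPM in the set labelled HOXB13ko-LV-MEIS1. HOXB13 mRNA went against the label. It was 185 to 215 CPM among Control libraries, 150 to 152 CPM with MEIS1, 307 to 347 CPM in libraries labelled HOXB13ko and 326 to 375 CPM in the set labelled HOXB13ko-LV-MEIS1, and mRNA level alone does not show whether protein was lost. The study's methods report successful knockout of HOXB13 by western blot, with each clonal line verified the same way, and protein was not analysed here. HOXB13ko and HOXB13ko-LV-MEIS1 in the comparisons are therefore names of labelled libraries. All 10 prostate luminal markers examined were listed.

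The channel genes were mostly of low abundance. Mean level over the 12 libraries had a median of 6.58 CPM for the members and of 29.1 CPM for all genes, and 45.1% of members lay under 5 CPM against 17.2% of all genes. No member was listed at 0 in any library. Levels of different genes can be compared only per length, and on that scale KCNC4, a rapidly inactivating voltage-gated potassium pore, had the highest mean over all 12 libraries with 80.8 CPM per kb of transcript. In LV-MEIS1 its 15.3 CPM per kb lay below KCNJ8, CACNB3, TRPM4 and CLCN7, which were between 17.3 and 27.2 CPM per kb there. By the same mean, the next members were TRPM4, a calcium-activated cation channel, at 22.6 CPM per kb, and CACNB3, a calcium channel beta subunit, at 19.9 CPM per kb. They were followed by CLCN7, the lysosomal chloride/proton exchanger, at 15.6 CPM per kb, and KCNJ8, the pore of an ATP-sensitive potassium channel, at 15 CPM per kb. ANO9 reached 13.3 CPM per kb, though it was above KCNJ8 in Control (15.3 and 8.84) and in libraries labelled HOXB13ko (12.7 and 12.3). KCNIP3 reached 4.95 and HCN2 reached 4.67, each the highest of its class. The marker gene ANO1 lay well below these in Control, at 0.152 CPM per kb.

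**Figure D1:**
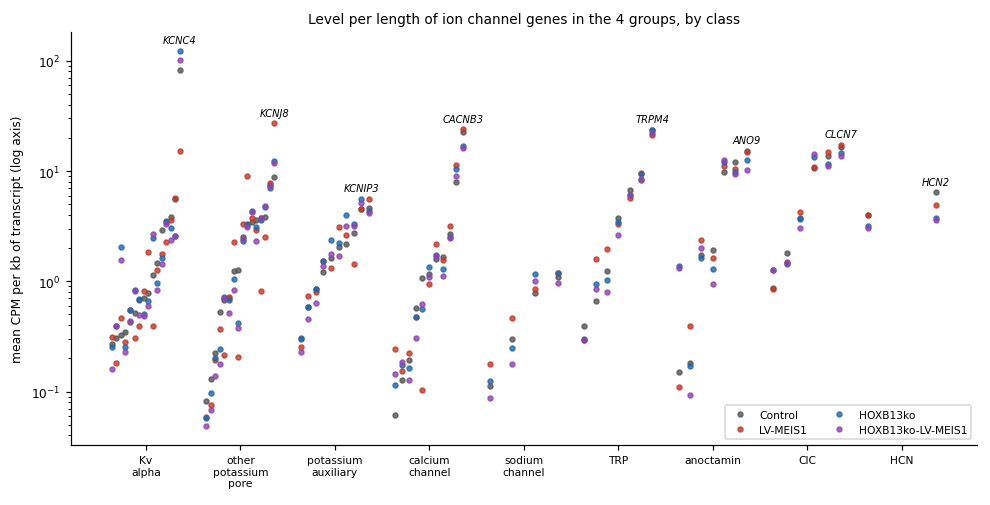
Mean CPM per kb of transcript on a log axis for 79 of the 82 ion channel genes, by class and group, with 1 point per gene and group. KCNC4 tops the Kv alpha class in every group, and its mean was 83 CPM per kb among Control libraries and 15.3 CPM per kb with MEIS1.

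A gene counts as called below where limma's treat test placed its change beyond 1.5-fold at an adjusted p under 0.05. The fit used log2(CPM + 0.5) of all 13951 genes, and log2 fold changes are given on that scale with their SE. In LV-MEIS1 against Control 11 of the 82 members were called (13.4%), 3 higher and 8 lower, where 3.99% of all genes were called (1.75% higher and 2.24% lower). In HOXB13ko against Control 4 members were called (4.88%), 2 higher and 2 lower, where the share of all genes was 1.41% (0.652% higher and 0.76% lower). In HOXB13ko-LV-MEIS1 against LV-MEIS1 16 members were called (19.5%), 10 higher and 6 lower, beside 6.71% of all genes (3.29% higher and 3.42% lower). In HOXB13ko-LV-MEIS1 against HOXB13ko no member was called by treat, and MEIS1 itself was the only gene called (0.00717%). In that comparison 0 members had an unadjusted treat p under 0.05, 0 passed the adjusted eBayes test against no change (0.0502% of all genes did) and 15 had an unadjusted eBayes p under 0.05. In all, 20 members (24.4%) were called in at least 1 of 5 contrasts against 8.04% of all genes, and 62 were not called in any. In these bulk samples, fewer cells expressing a gene and less RNA per cell cannot be told apart.

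The calls lay mostly among the 34 potassium pore subunits, of which 9 (26.5%) were called in LV-MEIS1 against Control, 2 higher and 7 lower, and 12 (35.3%) in HOXB13ko-LV-MEIS1 against LV-MEIS1, 7 higher and 5 lower. Among the other 48 members 2 (4.17%) and 4 (8.33%) were called in the same comparisons, close to the 3.99% and 6.71% of all genes. These comparisons share the LV-MEIS1 libraries, and the values of each group are therefore given side by side. The median log2 fold change of the members was close to that of all genes in LV-MEIS1 against Control (-0.015 and 0.007). By eBayes, which asks only for a change from 0, the members were close to the background in LV-MEIS1 against Control (37 or 45.1%, beside 44.5% of all genes) and in HOXB13ko against Control (31 or 37.8%, beside 32.9%), and above it in HOXB13ko-LV-MEIS1 against LV-MEIS1 (53 or 64.6%, beside 50.1%). Groups of libraries did not overlap for 42 members in the first of these (51.2%, beside 51.3% of all genes), 38 in the second (46.3%, beside 44.9%) and 63 in the third (76.8%, beside 58.3%). In HOXB13ko-LV-MEIS1 against HOXB13ko they did not overlap for 16 members (19.5%, beside 21.1%).

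**Figure D2:**
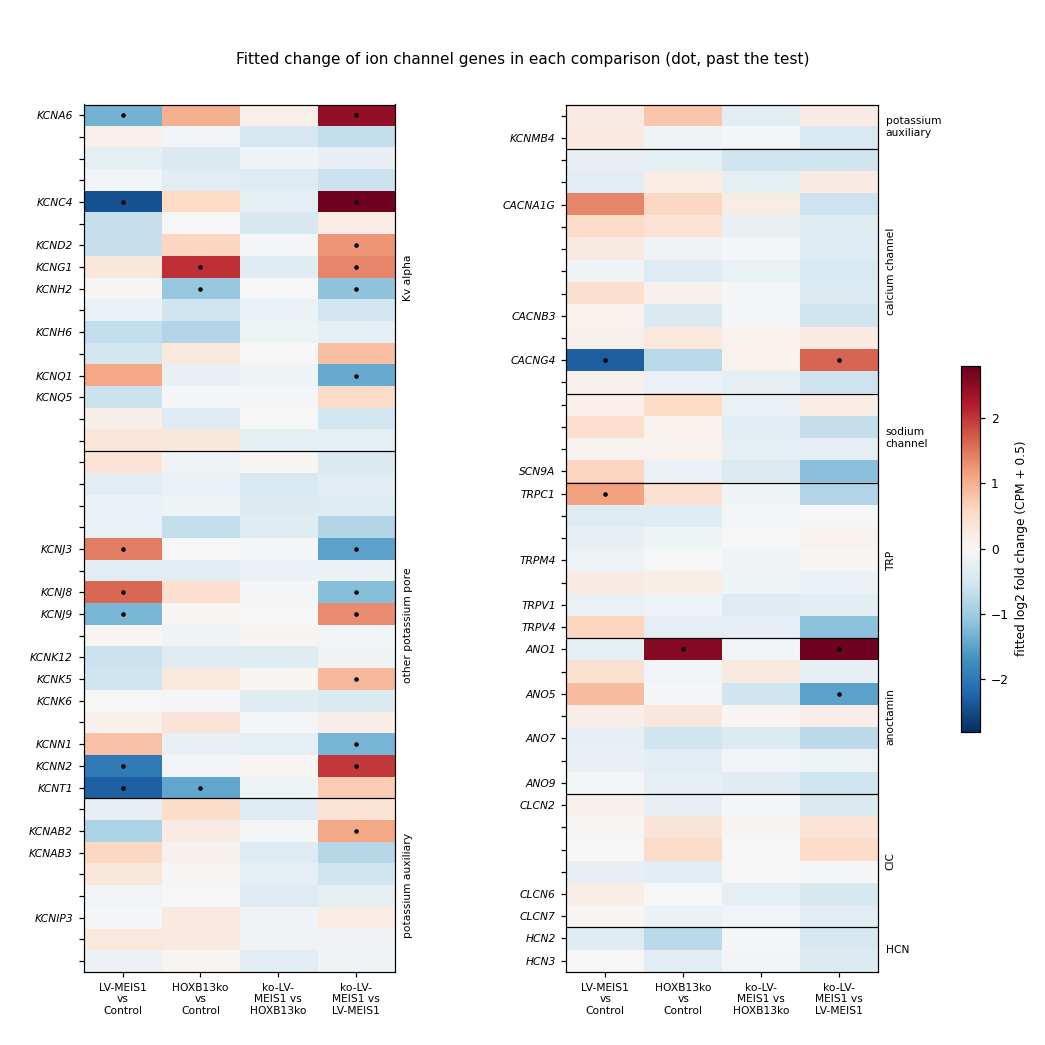
Fitted log2 fold change of 79 of the 82 ion channel genes (rows, by class) in each comparison (columns), with genes described in the text labelled and a dot where the gene passed limma's treat test. Dots fall on 9 of the 11 members called in LV-MEIS1 against Control, on 4 in HOXB13ko against Control, on 16 in HOXB13ko-LV-MEIS1 against LV-MEIS1 and on none in HOXB13ko-LV-MEIS1 against HOXB13ko.

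Of the 18 pore-forming Kv alpha subunits listed, 4 were called lower in LV-MEIS1 against Control by treat and none was called higher (22.2% called, beside 3.99% of all genes). KCNC4 (ENSG00000116396, chromosome 1, 110210314 to 110283100), the most abundant of them per length, was 360.3, 339 and 331 CPM in the Control libraries and 54.8, 70.4 and 65.2 CPM in LV-MEIS1. It was 443, 521 and 556 CPM in libraries labelled HOXB13ko and 418, 345 and 509 CPM in the set labelled HOXB13ko-LV-MEIS1. All LV-MEIS1 libraries lay far below the other 9. The difference was -2.43 ± 0.12 against Control (limma treat adjusted p = 3.15e-08), a ratio of means of 5.41-fold, and 2.72 ± 0.12 in HOXB13ko-LV-MEIS1 against LV-MEIS1 (adjusted p = 3.94e-09). The 250 bases before the RefSeq start of KCNC4 (GRCh38.p14, chr1:110210064-110210313, plus strand) are shown because this gene had both the highest mean level per length over all libraries and, on the fitted log2 scale, the largest decrease with MEIS1 among the members, and they were 79.2% G or C.
KCNC4: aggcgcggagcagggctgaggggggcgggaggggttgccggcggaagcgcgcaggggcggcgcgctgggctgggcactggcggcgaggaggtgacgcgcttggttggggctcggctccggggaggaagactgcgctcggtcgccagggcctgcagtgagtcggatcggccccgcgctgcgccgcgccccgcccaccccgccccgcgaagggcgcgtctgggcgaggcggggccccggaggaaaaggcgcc

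KCNA6 (ENSG00000151079, chromosome 12, 4809334 to 4813318), a Shaker-type delayed rectifier pore, was 4.69, 4.42 and 4.63 CPM in Control and 1.38, 2.16 and 1.19 CPM in LV-MEIS1. It was 11, 10.2 and 8.12 CPM in libraries labelled HOXB13ko and 10.7, 10.4 and 10.9 CPM in the set labelled HOXB13ko-LV-MEIS1. No library of Control or LV-MEIS1 reached the lowest library of either group labelled HOXB13ko, and the LV-MEIS1 libraries were lowest of all. KCNA6 fell by 1.32 ± 0.15 on the log2 scale with MEIS1 in the unedited background (limma treat adjusted p = 0.00485) and was higher by 2.46 ± 0.15 in HOXB13ko-LV-MEIS1 than in LV-MEIS1 (adjusted p = 2.52e-07). HOXB13ko against Control gave 1.00 ± 0.15, which did not pass (adjusted p = 0.394).

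KCNQ1 (ENSG00000053918, chromosome 11, 2444654 to 2849105), the slow delayed rectifier of heart and epithelia, was 2.3, 2.78 and 2.54 CPM in Control, 5.43, 5.31 and 7.09 CPM in LV-MEIS1, 2.32, 1.93 and 2.13 CPM in libraries labelled HOXB13ko and 2.06, 2.06 and 1.67 CPM in the set labelled HOXB13ko-LV-MEIS1. The LV-MEIS1 libraries were the highest, with no overlap with any other group. KCNQ1 differed by -1.40 ± 0.14 in HOXB13ko-LV-MEIS1 against LV-MEIS1 (limma treat adjusted p = 0.000661), while LV-MEIS1 against Control narrowly missed the threshold at 1.07 ± 0.14 (adjusted p = 0.0507). KCNQ1 shares 121 exonic bases with the antisense transcript KCNQ1OT1, which was listed and differed by -0.22 between LV-MEIS1 and Control and by -0.43 between HOXB13ko-LV-MEIS1 and LV-MEIS1. Strand was not used in the counting, so reads from that stretch cannot be assigned to either gene. KCNQ5, a subunit that joins with other KCNQ subunits, was 22.4 ± 2.03 CPM among Control libraries and 14.5 ± 1.47 CPM with MEIS1 (SD, n = 3 each). Its difference of -0.61 ± 0.08 passed eBayes against no change (adjusted p = 4.62e-05) but not treat (adjusted p = 1.00).

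Among the Kv alpha genes 2 were called with the HOXB13ko label both without and with MEIS1, and in neither comparison of the MEIS1 transgene. KCNH2 (ENSG00000055118, chromosome 7, 150944961 to 150978321), the hERG channel of cardiac repolarisation that is also found in tumour cells, was 24.1, 24.9 and 22.2 CPM in Control and 25.8, 22 and 25.8 CPM in LV-MEIS1. It was 10.9, 11.9 and 10.4 CPM in libraries labelled HOXB13ko and 10.5, 11.2 and 11.2 CPM in the set labelled HOXB13ko-LV-MEIS1. The 6 libraries labelled HOXB13ko, with or without MEIS1, all lay below the 6 others. KCNH2 fell by 1.07 ± 0.08 on the log2 scale in HOXB13ko against Control (limma treat adjusted p = 0.00299) and by 1.12 ± 0.08 in HOXB13ko-LV-MEIS1 against LV-MEIS1 (adjusted p = 0.000242). One of the RefSeq starts of KCNH2 (GRCh38.p14, chr7:150955805-150956054, minus strand) holds TGACAG, a core word bound by MEIS proteins, shown in capitals and beginning 185 bases before the start. The window is shown because KCNH2 was called and holds the word.
KCNH2: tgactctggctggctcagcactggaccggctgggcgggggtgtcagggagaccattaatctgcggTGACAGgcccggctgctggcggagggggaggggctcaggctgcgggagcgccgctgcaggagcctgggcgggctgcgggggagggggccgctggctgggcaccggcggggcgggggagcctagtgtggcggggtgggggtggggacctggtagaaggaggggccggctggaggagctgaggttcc

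KCNG1 (ENSG00000026559, chromosome 20, 51003656 to 51023107), a silent subunit that modifies other Kv channels, was 0.469, 0.937 and 0.751 CPM in Control, 1.03, 1.06 and 0.933 CPM in LV-MEIS1, 5.35, 4.25 and 3.84 CPM in libraries labelled HOXB13ko and 3.13, 3.56 and 3.58 CPM in the set labelled HOXB13ko-LV-MEIS1. Every library labelled HOXB13ko, with or without MEIS1, exceeded every other library. KCNG1 rose by 2.04 ± 0.17 in HOXB13ko against Control (limma treat adjusted p = 6.8e-05) and by 1.38 ± 0.17 in HOXB13ko-LV-MEIS1 against LV-MEIS1 (adjusted p = 0.00352). With MEIS1 it differed by 0.33 from Control and by -0.33 within the edited pool, where every library with MEIS1 lay below every one without.

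KCND2 (ENSG00000184408, chromosome 7, 120273175 to 120750337), a pore of transient A-type current, was 3.31, 2.77 and 3.01 CPM in Control, 1.83, 2.16 and 1.33 CPM in LV-MEIS1, 5.03, 5.09 and 4.49 CPM in libraries labelled HOXB13ko and 4.25, 5.38 and 4.78 CPM in the set labelled HOXB13ko-LV-MEIS1. The LV-MEIS1 libraries were lowest, Control came next, and the groups labelled HOXB13ko overlapped each other above them. Only HOXB13ko-LV-MEIS1 against LV-MEIS1 passed, at 1.24 ± 0.15 (limma treat adjusted p = 0.0056). KCNH6, of the same ether-a-go-go-related family as KCNH2, was 11 ± 0.288 CPM in Control, 6.64 ± 0.609 CPM in LV-MEIS1 and 6.07 ± 0.581 CPM (SD, n = 3 each) in the libraries labelled HOXB13ko. It passed eBayes in HOXB13ko against Control at -0.81 ± 0.10 (adjusted p = 5.5e-05) and not treat.

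**Figure D3:**
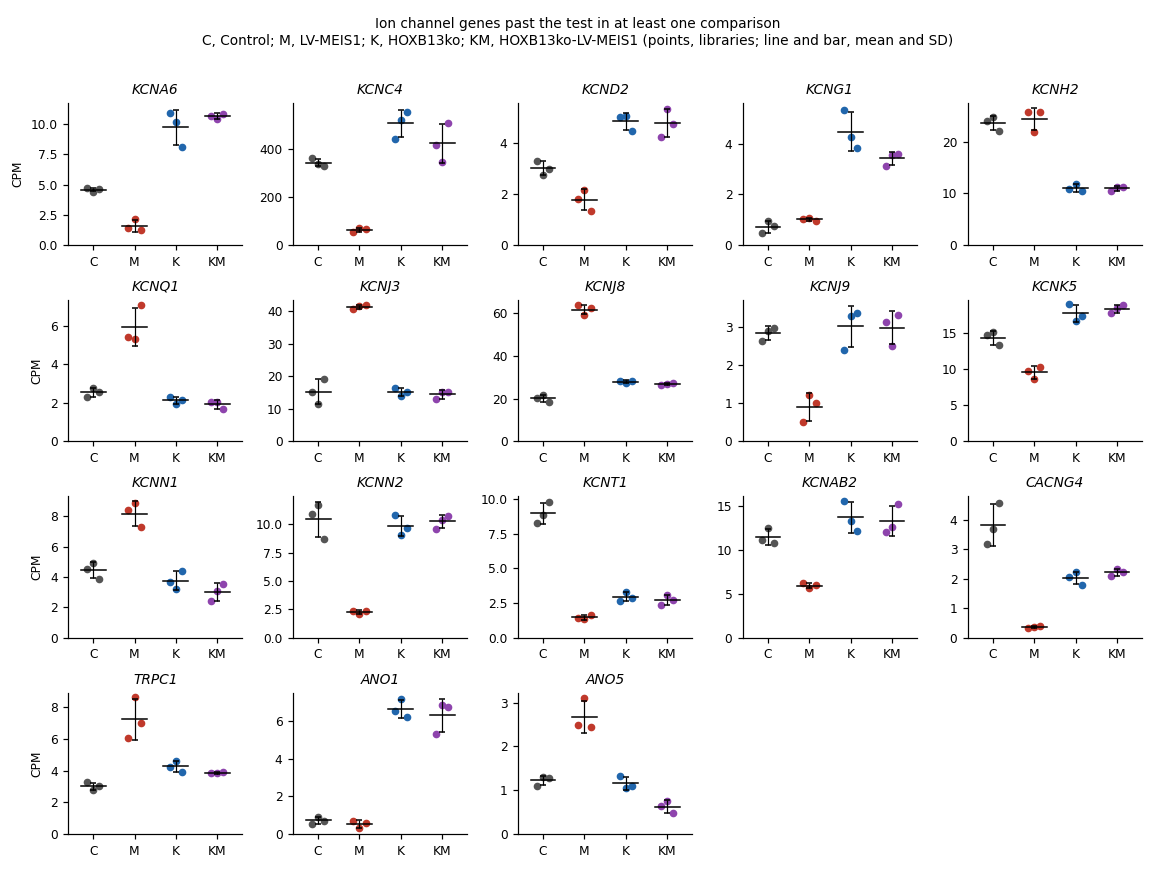
CPM of 18 of the 20 called ion channel genes in each library (points) with the group mean and SD (line and bar), each panel with its own linear axis from 0. The LV-MEIS1 group stands apart for KCNC4, KCNN2, KCNJ3 and KCNJ8, and both groups labelled HOXB13ko stand apart for ANO1, KCNG1 and KCNH2.

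Of the 16 other potassium pore subunits, 2 rose and 3 fell in LV-MEIS1 against Control (31.2% called, beside 3.99% of all genes). In HOXB13ko-LV-MEIS1 against LV-MEIS1 3 were higher and 3 lower (37.5% called, beside 6.71%). Both that rose with MEIS1 were inward rectifiers. KCNJ8 (ENSG00000121361, chromosome 12, 21764955 to 21775600) was 20.2, 21.7 and 18.4 CPM in Control, 63.7, 59.2 and 62.4 CPM in LV-MEIS1, 28.3, 27.4 and 28.2 CPM in libraries labelled HOXB13ko and 26.3, 27 and 27.5 CPM in the set labelled HOXB13ko-LV-MEIS1. The LV-MEIS1 libraries lay far above all others, and the groups labelled HOXB13ko overlapped each other between them and Control. The fitted log2 difference was 1.60 ± 0.07 in LV-MEIS1 against Control (limma treat adjusted p = 2.61e-08), a ratio of 3.07, and -1.18 ± 0.07 in HOXB13ko-LV-MEIS1 against LV-MEIS1 (adjusted p = 5.84e-06). ABCC9, the neighbouring gene that encodes the sulfonylurea receptor partner of this pore, had 0.77 and -0.46 in the same comparisons. The 250 bases before the RefSeq start of KCNJ8 (GRCh38.p14, chr12:21774707-21774956, minus strand, 64.8% G or C) are shown as the counterpart of the KCNC4 promoter, for the member with the largest fitted log2 increase in LV-MEIS1.
KCNJ8: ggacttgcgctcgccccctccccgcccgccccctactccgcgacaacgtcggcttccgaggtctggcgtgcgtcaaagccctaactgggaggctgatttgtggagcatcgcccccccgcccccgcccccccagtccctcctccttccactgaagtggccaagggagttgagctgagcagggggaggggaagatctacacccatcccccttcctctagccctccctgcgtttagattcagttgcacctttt

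KCNJ3 (ENSG00000162989, chromosome 2, 154697855 to 154858354), a G-protein-gated inward rectifier (GIRK) subunit, was 15.3, 11.5 and 19.1 CPM in Control, 40.8, 41.6 and 42 CPM in LV-MEIS1, 16.3, 14 and 15.1 CPM in libraries labelled HOXB13ko and 13, 15.2 and 15.2 CPM in the set labelled HOXB13ko-LV-MEIS1. The 3 other groups overlapped one another and all lay under every LV-MEIS1 library. KCNJ3 rose by 1.43 ± 0.13 in LV-MEIS1 against Control (limma treat adjusted p = 0.000401) and differed by -1.49 ± 0.13 in HOXB13ko-LV-MEIS1 against LV-MEIS1 (adjusted p = 0.000127). KCNJ9 (ENSG00000162728, chromosome 1, 160081538 to 160090563), another GIRK subunit, went the other way, from 2.62, 2.9 and 2.97 CPM among Control libraries to 0.498, 1.22 and 0.999 CPM in the LV-MEIS1 ones. It was 2.38, 3.28 and 3.35 CPM in libraries labelled HOXB13ko and 3.11, 2.49 and 3.31 CPM in the set labelled HOXB13ko-LV-MEIS1. The LV-MEIS1 libraries were again apart, now as the lowest, and KCNJ9 fell by 1.28 ± 0.20 on the log2 scale (limma treat adjusted p = 0.0409). In HOXB13ko-LV-MEIS1 it was higher than in LV-MEIS1 by 1.33 ± 0.20 (adjusted p = 0.0156). The KCNJ9 call against Control was also lost under equal-sum scaling (0.0507), quantile normalisation (0.0887) and a fit of only the libraries compared (0.0918). It was lost in 7 of the 12 fits that left out 1 library (each Control library, LV-MEIS1 replicates 1 and 3, HOXB13ko replicate 2 and HOXB13ko-LV-MEIS1 replicate 1, adjusted p 0.056 to 0.207). The other was lost without LV-MEIS1 replicate 1 or HOXB13ko-LV-MEIS1 replicate 1 or 3 (0.0587 to 0.0796).

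The calcium- and sodium-activated potassium channels held some of the largest changes, with 2 of 4 lower in LV-MEIS1 (50.0% called, beside 3.99% of all genes). KCNN2 (ENSG00000080709, chromosome 5, 114055926 to 114496500), a small-conductance calcium-activated channel, was 10.9, 11.7 and 8.75 CPM in Control, 2.33, 2.05 and 2.36 CPM in LV-MEIS1, 10.8, 9.08 and 9.73 CPM in libraries labelled HOXB13ko and 9.63, 10.4 and 10.7 CPM in the set labelled HOXB13ko-LV-MEIS1. The LV-MEIS1 libraries stood apart at the bottom while the other 3 groups overlapped. KCNN2 fell by 1.99 ± 0.12 on the log2 scale in LV-MEIS1 against Control (limma treat adjusted p = 4.31e-07) and was higher by 1.97 ± 0.12 in HOXB13ko-LV-MEIS1 than in LV-MEIS1 (adjusted p = 3.32e-07). KCNN1 (ENSG00000105642, chromosome 19, 17951293 to 18000085), of the same subfamily, was 4.54, 4.9 and 3.85 CPM in Control, 8.38, 8.86 and 7.28 CPM in LV-MEIS1, 3.68, 3.2 and 4.42 CPM in libraries labelled HOXB13ko and 2.41, 3.08 and 3.54 CPM in the set labelled HOXB13ko-LV-MEIS1. For this gene the LV-MEIS1 libraries were the highest, above every library of the other groups. KCNN1 was called only in HOXB13ko-LV-MEIS1 against LV-MEIS1, at -1.31 ± 0.15 (limma treat adjusted p = 0.00257), and LV-MEIS1 against Control gave 0.82 ± 0.15 (adjusted p = 1.00 with treat and 0.000543 with eBayes). A RefSeq promoter window of KCNN1 (GRCh38.p14, chr19:17952007-17952256, plus strand) is shown because it holds CTGTCA, the reverse complement of TGACAG, in capitals and beginning 235 bases before the start.
KCNN1: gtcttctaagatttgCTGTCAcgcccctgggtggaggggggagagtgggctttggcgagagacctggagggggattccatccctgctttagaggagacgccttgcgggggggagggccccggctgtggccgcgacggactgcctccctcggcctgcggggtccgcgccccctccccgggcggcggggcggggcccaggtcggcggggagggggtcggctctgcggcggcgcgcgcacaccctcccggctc

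KCNT1 (ENSG00000107147, chromosome 9, 135702185 to 135795508), a sodium-activated potassium channel of neurons, was the only member called lower in both LV-MEIS1 and the libraries labelled HOXB13ko against Control. It was 8.26, 8.87 and 9.76 CPM in Control, 1.39, 1.31 and 1.67 CPM in LV-MEIS1, 2.65, 3.32 and 2.89 CPM in libraries labelled HOXB13ko and 2.32, 3.09 and 2.71 CPM in the set labelled HOXB13ko-LV-MEIS1. Control lay above all other libraries and LV-MEIS1 below them. KCNT1 fell by 2.28 ± 0.14 on the log2 scale in LV-MEIS1 (limma treat adjusted p = 3.19e-07) and by 1.45 ± 0.14 in HOXB13ko (adjusted p = 0.00122). Both comparisons use the Control libraries. HOXB13ko-LV-MEIS1 against LV-MEIS1 gave 0.71 ± 0.14 and did not pass (adjusted p = 1.00).

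Of the 4 two-pore-domain channels, which carry background potassium current, KCNK5 was called. KCNK5 (ENSG00000164626, chromosome 6, 39188971 to 39229475), an acid-sensitive channel of epithelia, was 14.7, 15.2 and 13.3 CPM in Control, 9.74, 8.62 and 10.4 CPM in LV-MEIS1, 19.1, 16.7 and 17.5 CPM in libraries labelled HOXB13ko and 17.8, 18.5 and 18.9 CPM in the set labelled HOXB13ko-LV-MEIS1. The LV-MEIS1 libraries were the lowest, and the difference from HOXB13ko-LV-MEIS1 was 0.91 ± 0.09 (limma treat adjusted p = 0.0178). That call was lost without LV-MEIS1 replicate 2 or HOXB13ko-LV-MEIS1 replicate 2 or 3 (adjusted p 0.0553 to 0.104). Past eBayes only were KCNK12, a subunit of the halothane-inhibited type, at -0.59 ± 0.18 in LV-MEIS1 against Control (adjusted p = 0.0139), and KCNK6, a weakly inward-rectifying channel, at -0.41 ± 0.13 in HOXB13ko-LV-MEIS1 against LV-MEIS1 (adjusted p = 0.0184). Without LV-MEIS1 replicate 2 the KCNK12 difference had an eBayes adjusted p of 0.0608, and that of KCNK6 lay between 0.0518 and 0.082 without LV-MEIS1 replicate 2 or HOXB13ko-LV-MEIS1 replicate 2 or 3. Under quantile normalisation neither passed eBayes (adjusted p = 0.0558 for KCNK12 and 0.0877 for KCNK6).

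The 10 potassium channel auxiliary subunits held 1 call. KCNAB2 (ENSG00000069424, chromosome 1, 5990927 to 6101193), a cytoplasmic beta subunit of Shaker-type channels, was 11.2, 12.5 and 10.8 CPM in Control, 6.2, 5.62 and 6.00 CPM in LV-MEIS1, 15.6, 13.3 and 12.1 CPM in libraries labelled HOXB13ko and 12, 12.6 and 15.2 CPM in the set labelled HOXB13ko-LV-MEIS1. The LV-MEIS1 libraries lay below all others and the remaining groups overlapped. The log2 fold change was 1.09 ± 0.11 in HOXB13ko-LV-MEIS1 against LV-MEIS1 (limma treat adjusted p = 0.0043), and -0.89 ± 0.11 in LV-MEIS1 against Control (adjusted p = 0.158). KCNAB2 shares 212 exonic bases with NPHP4 on the opposite strand, which was listed and differed by -0.15 in LV-MEIS1 against Control and by 0.15 in HOXB13ko-LV-MEIS1 against LV-MEIS1. KCNAB3, another beta subunit, had -0.80 ± 0.12 in HOXB13ko-LV-MEIS1 against LV-MEIS1 (eBayes adjusted p = 8.56e-05), opposite in sign to KCNAB2. KCNMB4, an auxiliary subunit of the large-conductance calcium-activated channel, had -0.43 ± 0.07 in that comparison (eBayes adjusted p = 0.000192), and neither passed treat. KCNIP3, the class's highest per length and a calcium-binding partner of A-type channels, stayed between 13 ± 0.712 CPM in LV-MEIS1 and 16.1 ± 1.38 CPM (SD, n = 3 each) in the libraries labelled HOXB13ko.

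Of the 11 calcium channel genes, 3 pore subunits and 8 auxiliary ones, 1 was called. CACNG4 (ENSG00000075461, chromosome 17, 66964707 to 67033398), a gamma subunit that also serves as an auxiliary protein of AMPA-type glutamate receptors, was 3.2, 3.67 and 4.59 CPM in Control, 0.332, 0.375 and 0.407 CPM in LV-MEIS1, 2.05, 2.23 and 1.8 CPM in libraries labelled HOXB13ko and 2.09, 2.33 and 2.23 CPM in the set labelled HOXB13ko-LV-MEIS1. All 3 LV-MEIS1 libraries were under 1 CPM and all others above it. CACNG4 fell by 2.30 ± 0.15 on the log2 scale in LV-MEIS1 against Control (limma treat adjusted p = 9.67e-07), and it was higher by 1.64 ± 0.15 in HOXB13ko-LV-MEIS1 than in LV-MEIS1 (adjusted p = 0.000108). The pseudocount of 0.5 understates such a change, and the ratio of mean CPM was 10.3-fold. CACNA1G, the pore of a low-voltage-activated T-type channel, went from 0.698, 0.216 and 0.659 CPM among Control libraries to 2.55, 1.64 and 2.11 CPM with MEIS1, a difference of 1.37 ± 0.24 that passed eBayes (adjusted p = 0.000335) but not treat (adjusted p = 0.0608). CACNB3, the most abundant calcium channel member per length, was 70.3 ± 1.52 CPM in LV-MEIS1 and 47.7 ± 0.812 CPM (SD, n = 3 each) in the libraries labelled HOXB13ko-LV-MEIS1, a difference of -0.55 ± 0.05 (eBayes adjusted p = 3.56e-07) that was under 1.5-fold.

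None of the 5 sodium channel genes was called by treat in any comparison. By eBayes 1 passed in LV-MEIS1 against Control, 2 in HOXB13ko against Control, 0 in HOXB13ko-LV-MEIS1 against HOXB13ko and 3 in HOXB13ko-LV-MEIS1 against LV-MEIS1, and 1 had an unadjusted treat p under 0.05, in the last of these. SCN9A, a pore best known from pain-sensing neurons, was 4.54 ± 0.712 CPM in LV-MEIS1 and 1.73 ± 0.125 CPM (SD, n = 3 each) in the libraries labelled HOXB13ko-LV-MEIS1, a difference of -1.17 ± 0.20 (adjusted p = 0.0723 with treat and 0.000197 with eBayes).

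Among the 7 TRP genes TRPC1 was called. TRPC1 (ENSG00000144935, chromosome 3, 142724034 to 142807888), a cation channel subunit linked to calcium entry after store depletion, was 3.26, 2.81 and 3.01 CPM in Control, 6.09, 8.62 and 7.03 CPM in LV-MEIS1, 4.26, 4.64 and 3.92 CPM in libraries labelled HOXB13ko and 3.83, 3.85 and 3.95 CPM in the set labelled HOXB13ko-LV-MEIS1. The LV-MEIS1 libraries were the highest and the Control libraries the lowest. TRPC1 rose by 1.13 ± 0.13 in LV-MEIS1 against Control (limma treat adjusted p = 0.0128), and this call was lost without Control replicate 2 or LV-MEIS1 replicate 2 (0.0597 to 0.0936). TRPV4, an osmosensitive channel, had -1.15 ± 0.19 in HOXB13ko-LV-MEIS1 against LV-MEIS1 (adjusted p = 0.0691 with treat and 0.000163 with eBayes). TRPV1, the capsaicin and heat receptor, had -0.31 ± 0.09 there (eBayes adjusted p = 0.0122). That eBayes adjusted p became 0.0533 without HOXB13ko-LV-MEIS1 replicate 3 and 0.0812 under quantile normalisation. TRPM4, the most abundant TRP member per length, lay between 86.3 ± 4.94 CPM in LV-MEIS1 and 96.2 ± 7.64 CPM in the libraries labelled HOXB13ko, with eBayes adjusted p of 0.114 in LV-MEIS1 against Control.

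Of the 7 anoctamins, ANO1 and ANO5 were called. ANO1 (ENSG00000131620, chromosome 11, 69985907 to 70189530), the TMEM16A calcium-activated chloride channel, was 0.552, 0.908 and 0.712 CPM in Control and 0.677, 0.307 and 0.606 CPM in LV-MEIS1. It was 6.51, 7.13 and 6.17 CPM in libraries labelled HOXB13ko and 5.3, 6.85 and 6.71 CPM in the set labelled HOXB13ko-LV-MEIS1. The 6 libraries labelled HOXB13ko, with or without MEIS1, all exceeded 5 CPM and the 6 others all lay under 1 CPM. ANO1 rose by 2.55 ± 0.17 in HOXB13ko against Control (limma treat adjusted p = 3.95e-06), a ratio of means of 9.12, and by 2.73 ± 0.17 in HOXB13ko-LV-MEIS1 against LV-MEIS1 (adjusted p = 2.25e-07), a ratio of 11.9. With MEIS1 it differed by -0.26 ± 0.17 from Control and by -0.07 ± 0.17 within the edited pool, and the 95% intervals were -0.63 to 0.11 and -0.44 to 0.30. Its listed neighbours CCND1 and FADD differed by -0.03 and 0.03 in HOXB13ko against Control. The annotation places 646 exonic bases of ANO1-AS1 on the opposite strand of ANO1, and reads from that stretch cannot be assigned to either.

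ANO5 (ENSG00000171714, chromosome 11, 21782659 to 22283567), an intracellular anoctamin whose loss causes muscle disease, was 1.1, 1.3 and 1.27 CPM in Control, 2.49, 3.09 and 2.44 CPM in LV-MEIS1, 1.33, 1.05 and 1.11 CPM in libraries labelled HOXB13ko and 0.645, 0.763 and 0.478 CPM in the set labelled HOXB13ko-LV-MEIS1. The LV-MEIS1 libraries were highest and the HOXB13ko-LV-MEIS1 libraries lowest, and the difference between them was -1.49 ± 0.16 (limma treat adjusted p = 0.000856). ANO7, an anoctamin known for its expression in prostate, was 8.81 ± 0.577 CPM in Control, 7.48 ± 0.224 CPM in LV-MEIS1, 5.87 ± 0.638 CPM (SD, n = 3 each) in libraries labelled HOXB13ko and 4.35 ± 0.449 CPM in the set labelled HOXB13ko-LV-MEIS1. It had -0.72 ± 0.11 in HOXB13ko-LV-MEIS1 against LV-MEIS1 (eBayes adjusted p = 7.23e-05). ANO9, a member with lipid scramblase activity, had -0.57 ± 0.09 in that comparison (eBayes adjusted p = 0.000118), and neither passed treat.

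None of the 6 ClC genes and neither of the 2 HCN genes was called by treat. CLCN2, a chloride channel of the plasma membrane, had -0.42 ± 0.06 in HOXB13ko-LV-MEIS1 against LV-MEIS1 (eBayes adjusted p = 3.89e-05), and CLCN6, an endosomal exchanger, had -0.46 ± 0.06 (eBayes adjusted p = 3.72e-05). CLCN7, the lysosomal member, had -0.32 ± 0.07 (eBayes adjusted p = 0.00172). HCN2, which carries a hyperpolarisation-activated pacemaker current, was 21.9 ± 3.03 CPM in Control and 12.7 ± 1.89 CPM (SD, n = 3 each) in the libraries labelled HOXB13ko, with -0.76 ± 0.13 (eBayes adjusted p = 0.000603). HCN3, of the same family, had -0.38 ± 0.09 in HOXB13ko-LV-MEIS1 against LV-MEIS1 (eBayes adjusted p = 0.00285). All 5 of these values were below 0, that of HCN2 in HOXB13ko against Control and the others in HOXB13ko-LV-MEIS1 against LV-MEIS1. The 6 ClC genes together ranged from -0.46 to 0.54 in the latter, so the class did not move in 1 direction. In HOXB13ko-LV-MEIS1 against LV-MEIS1, 5 ClC genes passed eBayes (83.3%, beside 50.1% of all genes), 2 higher and 3 lower, and both HCN genes did. No gene of either class had an unadjusted treat p under 0.05 in any comparison.

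Whether MEIS1 acted on the channel genes differently in the 2 backgrounds was tested directly, as the MEIS1 effect in unedited cells minus that in the edited pool. Of the 82 members 10 passed limma treat (12.2%), 4 above 0 and 6 below, where 2.93% of all genes passed (1.31% above and 1.62% below). By eBayes 30 members passed (36.6%, beside 34.2% of all genes). Those past treat and below 0 were CACNG4 at -2.40 ± 0.22 (adjusted p = 4.25e-05), KCNT1 at -2.17 ± 0.19 (adjusted p = 5.63e-05), KCNC4 at -2.16 ± 0.17 (adjusted p = 1.74e-05) and KCNN2 at -2.05 ± 0.17 (adjusted p = 2.58e-05), with KCNA6 and 1 further member. Those past treat and above 0 were KCNJ8 at 1.65 ± 0.09 (adjusted p = 1.52e-06) and KCNJ3 at 1.5 ± 0.19 (adjusted p = 0.00667), with ANO5 and TRPC1. Of these, ANO5 at 1.44 ± 0.23 (adjusted p = 0.0434) lost its call in 11 of the 12 fits that left out 1 library, all but the fit without HOXB13ko-LV-MEIS1 replicate 2 (0.0633 to 0.141). TRPC1 at 1.25 ± 0.18 (adjusted p = 0.0437) lost it in 10, all but those without replicate 1 of Control or of LV-MEIS1 (0.0507 to 0.133). KCNA6 at -1.45 ± 0.22 (adjusted p = 0.0255) lost it in 8, all but those without Control replicate 2, LV-MEIS1 replicate 2 or HOXB13ko replicate 1 or 2 (0.0507 to 0.0749).

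The 11 members called in LV-MEIS1 against Control had absolute log2 fold changes of at least 0.93 there, and in HOXB13ko-LV-MEIS1 against HOXB13ko, which shares no library with that comparison, none was beyond 0.27 and 5 of 11 had the same sign. KCNC4, with -2.43 ± 0.12 in the first, had -0.27 ± 0.12 in the second with a 95% interval of -0.53 to -0.01. KCNJ8, with 1.60 ± 0.07 in the first, had -0.05 ± 0.07 with an interval of -0.19 to 0.09. Pearson's r between the 2 comparisons was -0.1 over the 82 members and -0.04 over all genes, given as a description since genes share libraries and are not independent. MEIS1 mRNA was lower in the HOXB13ko-LV-MEIS1 libraries than in LV-MEIS1, as given above, and the part of that difference in these results was not tested. In HOXB13ko-LV-MEIS1 against HOXB13ko 67 of the 82 members (81.7%) lay below 0, against 48.1% of all genes, with a median of -0.112, although no single member passed. Under quantile normalisation 59 members lay below 0, with a median of -0.065. Of 38 genes of ion transport outside these families, 25 (65.8%) lay below 0 in the main fit.

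**Figure D4:**
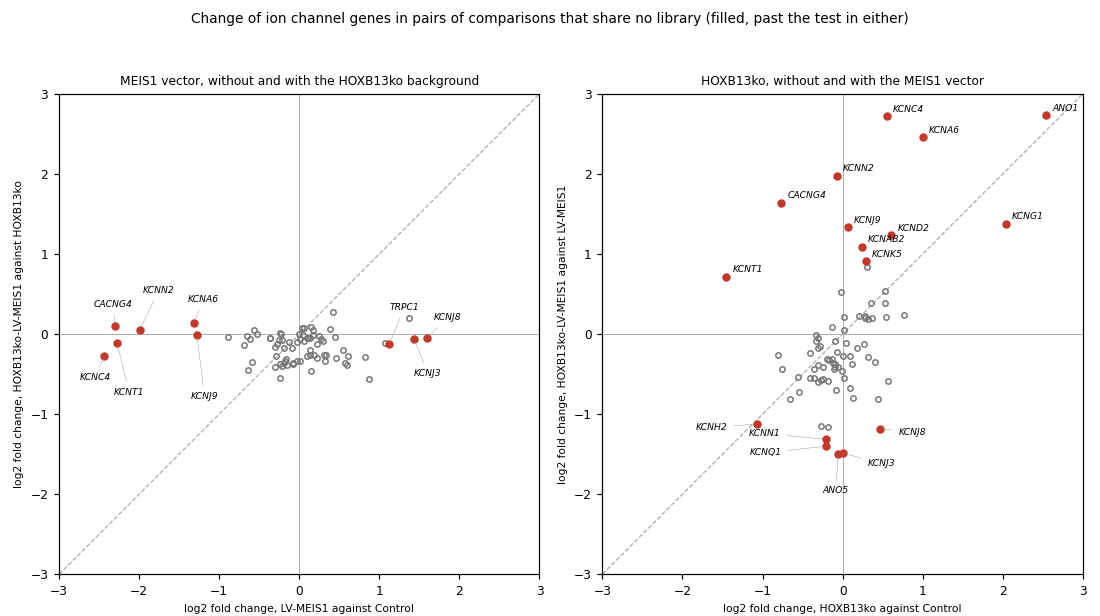
Log2 fold change of 79 of the 82 ion channel genes in pairs of comparisons that share no library, with filled points for genes past limma's treat test in either. On the MEIS1 axes the 9 called members shown spread from -2.43 to 1.6 in unedited cells and stay within 0.27 of 0 in the edited pool, while ANO1, KCNG1 and KCNH2 keep their direction on the HOXB13ko axes.

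The effect of the HOXB13ko label could likewise be compared without and with MEIS1, in comparisons that share no library. ANO1, KCNG1 and KCNH2 were called in both with the same sign, and KCNT1 was called in HOXB13ko against Control alone, with -1.45 there and 0.71 in HOXB13ko-LV-MEIS1 against LV-MEIS1. Over the 82 members 60 (73.2%) had the same sign in both, against 60.0% of all genes, and r was 0.47 over members and 0.42 over all genes. The difference of the HOXB13ko effects without and with MEIS1 is the same quantity as the difference of the MEIS1 effects. For ANO1 it was -0.19 ± 0.25 with a 95% interval of -0.71 to 0.34, for KCNG1 0.66 ± 0.24 (0.15 to 1.17) and for KCNH2 0.05 ± 0.12 (-0.20 to 0.31).

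Neighbouring genes were examined for each called member, as the 10 listed genes on either side with a mean of at least 1 CPM. Over the 41 calls the median change of the neighbours lay between -0.23 and 0.23. Single flanking genes could differ more. SLC6A17, a neurotransmitter transporter gene next to KCNC4, differed by -2.45 in LV-MEIS1 against Control and by 2.08 in HOXB13ko-LV-MEIS1 against LV-MEIS1, and RBM15-AS1 on the other side differed by -1.0 and 0.93. The median of the 20 neighbours was 0.07 in the first of these comparisons and -0.01 in the second. TRIM36 beside KCNN2 differed by -0.85 in LV-MEIS1 against Control and by 0.8 in HOXB13ko-LV-MEIS1 against LV-MEIS1, the same signs as KCNN2, and ABCC9 beside KCNJ8 had 0.77 in LV-MEIS1 against Control. IGSF8 beside KCNJ9 had the opposite sign to it in both comparisons, at 0.73 and -1.02.

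RefSeq promoter windows, from 250 bases before to 50 after a start, were matched for 59 members (97 windows) and for 14 of the 20 called. The MEIS core word TGACAG, searched on both strands, stood in 15 of the 97 member windows (15.5%) and in 3 of the 23 windows of called members (13.0%, in KCNH2, KCNN1 and TRPC1). It stood in 13.7% of the 15552 windows of listed genes and in 15.8% of all 35116 windows. The HOXB13 word CCAATAAA stood in 1 member window (1.03%), that of KCNIP4, in 0.669% of windows of listed genes and in 0.934% of all windows. The word CTCGTAAA, a methylated-site form, stood in none of the members' windows, in 0.103% of those of listed genes and in 0.137% of all. The last of these words share their final letters TAAA but cannot match at the same place, and a match or its absence in these windows says nothing of binding.

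Genes of ion transport outside these families were examined as a list of 58 pumps, exchangers and other channels, of which 38 had values. Called in LV-MEIS1 against Control were 3, all lower (ATP2A3 and SCNN1A among them), or 7.89% beside 3.99% of all genes, and in HOXB13ko against Control ATP1B1 was called higher, or 2.63% beside 1.41%. In HOXB13ko-LV-MEIS1 against LV-MEIS1 8 were called, 6 higher and 2 lower, or 21.1% beside 6.71%. Called in HOXB13ko-LV-MEIS1 against HOXB13ko by limma treat were 0 beside 0.00717% (0 past eBayes, and 7 with an unadjusted eBayes p under 0.05), and 3 passed the difference of the MEIS1 effects, or 7.89% beside 2.93%. Several channels above are known from neurons, and of the 12 neuroendocrine and neuronal markers examined 6 were listed. CHGA, NEUROD1, INSM1, SCG5 and STMN2 were not among them. Of the 6, 4 (CHGB, SCG3, SYP and SYT4) were called lower in LV-MEIS1 against Control (66.7%, beside 3.99% of all genes). In HOXB13ko against Control 3 were called lower (50.0%, beside 1.41%), and 1 of the 6 passed eBayes as higher, at 0.41. In HOXB13ko-LV-MEIS1 against LV-MEIS1, SCG3 and SYT4 were called higher (33.3%, beside 6.71%), and 1 of the 6 passed eBayes as lower, at -0.77. The summed level of the 6 ranged from 358 to 377 CPM among Control libraries, from 237 to 252 CPM with MEIS1, 370 to 375 CPM in libraries labelled HOXB13ko and 417 to 436 CPM in the set labelled HOXB13ko-LV-MEIS1. The part of this in the channel results was not tested. Of 6 fibroblast and smooth muscle markers 3 were listed, with sums between 33.3 and 44.4 CPM in all libraries. In LV-MEIS1 against Control COL1A1 was called higher (1.15) and VIM lower (-1.64), and in HOXB13ko-LV-MEIS1 against LV-MEIS1 ACTA2 was called higher (1.19) and COL1A1 lower (-0.98). Their part in the channel results was not tested, and none of 4 blood and endothelial markers was listed.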

How the data were processed

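The deposited values are CPM, which the authors made from single-end 50 bp reads of stranded poly(A) libraries. Per the submitters' processing notes and the study's methods, reads were trimmed (Trimmomatic 0.38), quantified against Ensembl GRCh38.p12 transcripts (kallisto 0.43.1, without strand), summed to genes with tximport, filtered and normalised (edgeR 3.22.2). Reads of shared sequence were divided between transcripts. Of 13993 rows, 42 exact repeats were left out. Depth was estimated from steps of low values, of which 48.4% to 62.5% under 1 CPM were near whole (within 0.1 read), so reads were not recovered and no count model was used.

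The 82 members were matched by symbol. Linear models (limma 3.58.1, R 4.3.3) were fitted to log2(CPM + 0.5) of all 13951 genes in 12 libraries, with a mean per group and a trended prior. The main test was treat (fold 1.5, Benjamini-Hochberg adjusted p under 0.05), and eBayes tested against no change. Named were ANO1, every called member, the 2 uncalled members per class with the smallest eBayes adjusted p under 0.05 in a pairwise contrast, and each class's highest member per length, and a few of these are not reported here. Members and lists were chosen with earlier results of these data known. Alternatives were other pseudocounts (0.1 and 1), a minimum mean of 1 CPM, 3 scalings, a replicate block, an untrended prior, other call rules, only the libraries compared, and leaving out each library. On simulated data for LV-MEIS1 against Control (200 changed of 13951 genes), 100% of 4-fold and 65% of 2-fold changes and 0 unchanged genes were called. Positions and lengths came from GENCODE 44 and promoters from RefSeq (GRCh38.p14). Analysis used Python 3.11.15, pandas 2.3.3 and matplotlib 3.10.9.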

Additional observations from a re-analysis of the deposited data

Results flagged for a closer look

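For 10 channel genes, 9 of them given here, the effect of MEIS1 differed between unedited cells and the edited pool by limma's treat test of the difference itself, with all libraries in the fit. The difference on the log2 scale was below 0 for CACNG4 (-2.4), KCNT1 (-2.17), KCNC4 (-2.16), KCNN2 (-2.05) and KCNA6 (-1.45). It was above 0 for TRPC1 (1.25), ANO5 (1.44), KCNJ3 (1.5) and KCNJ8 (1.65). Groups of 3 libraries are too small for a test of single outlying libraries.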

How the results depend on the processing

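No call of a named member changed direction under any alternative run, nor did the eBayes results by which uncalled members were named. Direction was not followed for named members in their other comparisons. Without the fold change threshold (eBayes) 37 members passed in LV-MEIS1 against Control (45.1%, beside 44.5% of all genes) and 31 in HOXB13ko against Control (37.8%, beside 32.9%). In HOXB13ko-LV-MEIS1 against LV-MEIS1 53 passed (64.6%, beside 50.1%), and 30 did for the difference of the MEIS1 effects (36.6%, beside 34.2%). With the threshold applied afterwards the counts were 23, 12, 28 and 24. The share of all genes is not given for that rule or for the alternatives below. These counts therefore show only how the calls of members depend on the setting. At an adjusted p under 0.01 the difference of the MEIS1 effects kept 6 members, and without Control replicate 3 it had 6. Leaving out 1 library gave 9 to 13, 4, 14 to 17 and 6 to 8 members in the same order, and HOXB13ko-LV-MEIS1 against HOXB13ko stayed at 0. A pseudocount of 0.1 gave 13 members in LV-MEIS1 against Control, with CACNA1G and KCNQ1 added, and 18 in HOXB13ko-LV-MEIS1 against LV-MEIS1, with SCN9A and TRPV4 added. The 67 members below 0 in HOXB13ko-LV-MEIS1 against HOXB13ko became 59 to 71 under the other scalings. Same-numbered libraries did not deviate together (r of -0.297 to 0.227 over 18 pairs, 2 of them over 0.1), so the numbers do not pair them. With a replicate block 11, 4, 0, 16 and 8 members were called in the 5 contrasts, ANO5 and TRPC1 being lost from the difference of the MEIS1 effects. A pseudocount of 1 took away both KCNJ9 calls and those of ANO5, KCNA6 and TRPC1 in the contrast of MEIS1 effects (adjusted p 0.0533 to 0.158). Quantile normalisation took away ANO5 (0.0831) and TRPC1 (0.121) there and KCNJ9 in LV-MEIS1 against Control. No other named call by treat was lost, apart from those that an adjusted p under 0.01 or leaving out a library removed and the KCNJ9 call given in the report. Members under 1 CPM rest on few reads, and all 3 libraries of a group come from 1 line or pool.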
